A study of Sus scrofa with 8 samples.

Results

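The genes described here encode the proteins that package DNA and those that alter the package. They were chosen by symbol in the array annotation, as probe sets with a single symbol that begins with HMGA, HMGB or HMGN, with HIST or another histone root (H1, H2 or H3), or with HDAC, SIRT, SMARC, KDM, KMT, CBX or DNMT, without KDM5C, KDM5D and KDM6A. This gave 43 genes among the 6765 that single symbols name on the Affymetrix Porcine array, and 76 of its 24123 probe sets. Where a gene had several probe sets, they are numbered here by mean signal, with 1 the brightest. The chosen genes were high mobility group genes, histones and histone variants, histone deacetylases and sirtuins, parts of nucleosome remodelling complexes, lysine demethylases and methyltransferases, the chromobox gene CBX3 and DNA methyltransferases.

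The oviducts came from 4 crossbred Landrace × Large White sows with pre-ovulatory follicles. Each sow received flow-sorted Y-spermatozoa in one oviduct and flow-sorted X-spermatozoa in the other by laparoscopy, and cells scraped from both oviducts were taken 24 h later. Each sperm type was a pool from several boars, and neither sorted pool was fully pure. This gave 4 arrays with Y-spermatozoa (Y1 to Y4) and 4 with X-spermatozoa (X1 to X4). Equal replicate numbers were taken to mark the same sow, although the sample titles name no sow. No oviduct without spermatozoa was on an array, so each comparison asks whether the oviduct differed between the sperm types.

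In the nucleus DNA is wound around histones into nucleosomes. Linker histones and high mobility group proteins bind to this fibre, remodelling ATPases slide or evict nucleosomes, and enzymes add or remove acetyl and methyl groups on histone tails, while DNA methyltransferases mark the DNA itself. These proteins are known as regulators of which genes a cell can transcribe, and several of them, such as HDAC6 and SIRT2, act on tubulin as well, in a mucosa where many cells carry cilia.

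A value is the deposited linear signal of a probe set on an array, scaled by the authors to one trimmed mean. A difference is the limma estimate of Y-spermatozoa minus X-spermatozoa on log2 of quantile-normalized signals, fitted over 23999 probe sets without the AFFX controls. The p-values given are unadjusted limma p-values unless said otherwise, and 0.05 is the threshold. Array medians lay between 38.7 and 41.2. The background level, the upper limit of most probe sets without a pig target, lay between 8.5 and 10.7 on the Y-spermatozoa arrays and between 10.3 and 12.3 on the X-spermatozoa arrays. OVGP1, the oviduct-specific glycoprotein, was high on every array, with signals between 7768.9 and 9314.9 with Y-spermatozoa and between 5841.4 and 8469.1 with X-spermatozoa. After quantile normalization its log2 difference was 0.02 (limma p of 0.870). MSX1, the other secretory gene measured, was near background, its brighter probe set between 9.3 and 15.0 with Y-spermatozoa and between 9.5 and 26.2 with X-spermatozoa. Transcripts of smooth muscle were present too, with a summed signal of 4 genes between 1129 and 3803.6 with Y-spermatozoa and between 1622.9 and 4609.1 with X-spermatozoa. Because scraped cells are a mixture, fewer cells of a type and less RNA per cell cannot be told apart.

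Most chromatin genes gave a signal in the oviduct, and 2 of their probe sets passed the test between the sperm types. Of the 76 probe sets, 64 lay above the background level on all 8 arrays (84.2%, against 65.5% of all probe sets), 11 on some arrays and 1, a probe set of the maintenance methyltransferase DNMT1, on none. Their median mean signal was 120.3. The difference was above 0 for 37 probe sets and below 0 for 39, with a median of -0.0047 beside 0.0032 over all probe sets tested. The quartiles were -0.09 and 0.14. Within single sows the median over these probe sets was 0.0080, 0.04, -0.03 and -0.03 in sows 1 to 4.

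None of the 76 was higher with Y-spermatozoa at the threshold, where 1.62% of all probe sets were. HMGB1 and SMARCA5, with 1 probe set each, were lower, which is 2.63% of the 76 beside 1.94% of all probe sets. After Benjamini-Hochberg adjustment in limma no probe set passed, and both called probe sets had an adjusted p of 1. When the sow entered the model as a block, since each sow gave both oviducts, the same 2 probe sets were lower (2.75% of all probe sets were) and a probe set of HDAC6 was higher (2.35% of all probe sets were). These shares lie near those of the whole array.

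For many of these genes the data also bound the size of a difference. The 95% interval of the difference lay within 0.5 of 0 on the log2 scale for 38 of the 76 probe sets and within 1 of 0 for 68. The median distance between an estimate and either end of its interval was 0.37. The other 8, which include probe sets of HDAC6, HDAC3, KMT5B, SMARCA1, SMARCA4, H2AFY, DNMT1 and HIST1H2BD, had wider intervals, and each of these 8 lay below the background level on at least 1 array.

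**Figure D1:**
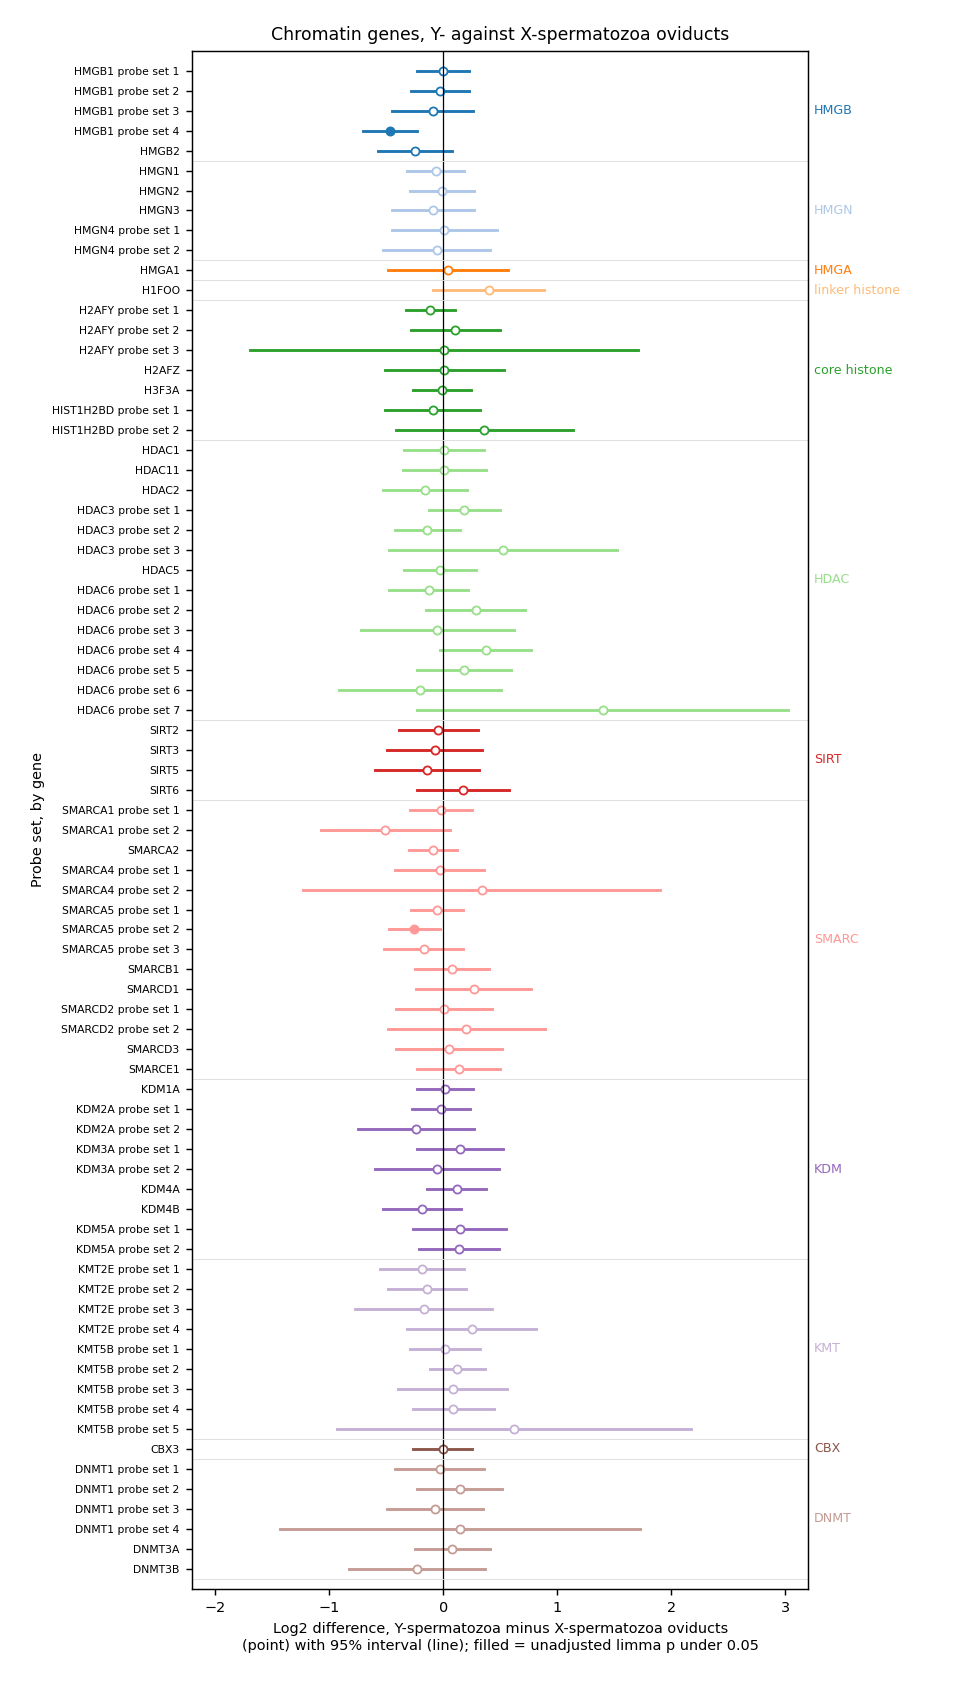
Log2 difference, Y-spermatozoa minus X-spermatozoa oviducts (horizontal axis), for each of the 76 probe sets (rows, grouped by family), with the 95% interval of the limma fit as a line. Only the filled points, 1 probe set of HMGB1 at -0.46 and 1 of SMARCA5 at -0.25, had an unadjusted p under 0.05, and the median of all points is -0.0047.

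High mobility group box proteins bend DNA without regard to its sequence, and HMGB1, the most studied of them, is also released from damaged cells as an alarm signal. The called probe set of HMGB1, probe set 4 and the dimmest, had signals of 11.7, 10.2, 10.3 and 11.4 in the Y-spermatozoa oviducts of sows 1 to 4, against 16.2, 15.3, 17.1 and 14.7 in their X-spermatozoa oviducts. Every Y-spermatozoa array lay below every X-spermatozoa array. The means were 10.9 ± 0.762 with Y-spermatozoa and 15.8 ± 1.05 with X-spermatozoa (SD, n = 4 each). The log2 difference was -0.46 (standard error 0.10, 95% interval -0.70 to -0.23), with a limma p of 0.00215, a p of 0.00888 with the sow as a block and an exact permutation p of 0.0286, two-sided, which is the lowest possible with 4 arrays in each group.

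These signals were close to the background level of the same arrays. They stood at 1.05 to 1.30 times that level with Y-spermatozoa and at 1.28 to 1.56 times with X-spermatozoa. On this measure the groups overlapped, as Y1 (1.30) stood above X4 (1.28). Within each sow the ratio was still lower with Y-spermatozoa. The background level itself was lower with Y-spermatozoa in each sow, and its part in the difference of this probe set was not tested.

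The other HMGB1 probe sets did not pass the test. Probe set 1, the brightest, had signals of 1953.4, 2214.2, 1990.8 and 2140.3 with Y-spermatozoa and 2022.4, 1953.9, 2045.9 and 1897.0 with X-spermatozoa. Probe set 2 ranged between 673.4 and 767.1 with Y-spermatozoa and between 625.3 and 768.5 with X-spermatozoa, and probe set 3 between 142.1 and 216.3 with Y-spermatozoa and between 175.3 and 204.5 with X-spermatozoa. In all 3 the groups overlapped, with log2 differences of -0.0039, -0.03 and -0.09 and limma p-values between 0.555 and 0.97. The 95% intervals of these 3 differences reached no lower than -0.45. Whether the 4 probe sets detect the same HMGB1 transcripts is not given in the sources used here.

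HMGB2, a close relative of HMGB1 found mostly in dividing cells, did not pass the test. Its signals were 345.6, 384.5, 390.3 and 355.9 with Y-spermatozoa, against 480.6, 349.0, 502.6 and 433.8 with X-spermatozoa. It was lower with Y-spermatozoa in 3 sows and not in sow 2, where the X-spermatozoa array was the lowest of its group (log2 difference -0.25, standard error 0.14, limma p of 0.117). Without array X2 the limma p of HMGB2 fell under the threshold. All 5 HMGB probe sets had differences below 0 after quantile normalization, but 2 of the 5, both bright probe sets of HMGB1, were above 0 with the signals as scaled by the authors and also after median centring of the arrays. HMGB2 was named after its values were seen.

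**Figure D2:**
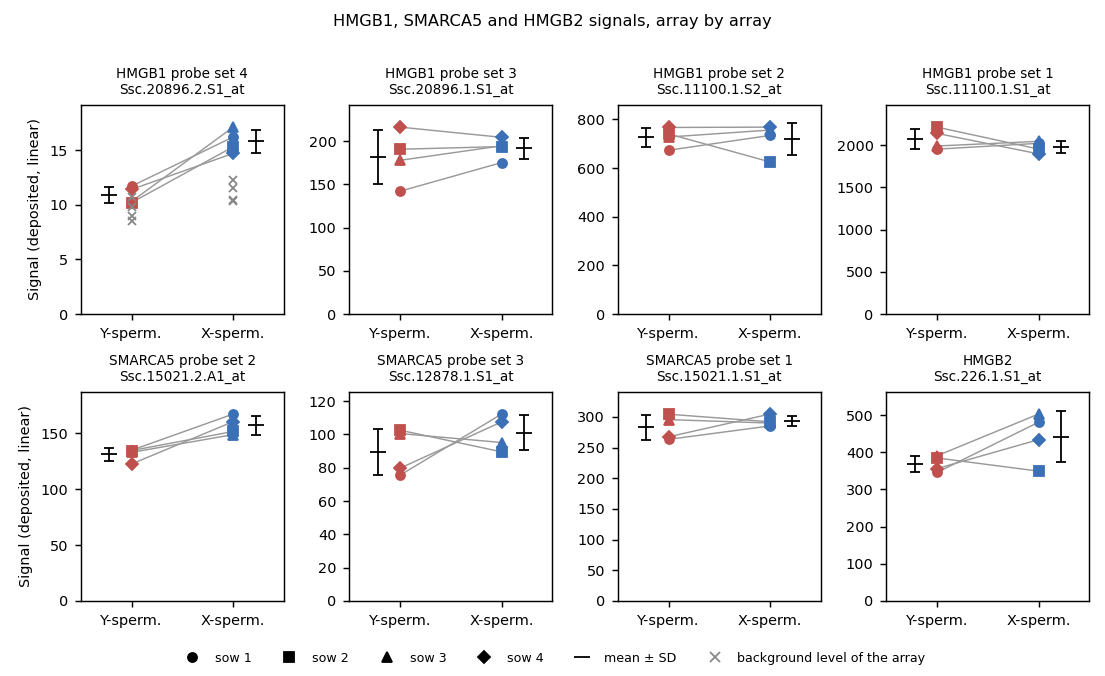
Deposited signal (vertical axis, linear) of the HMGB1, SMARCA5 and HMGB2 probe sets in Y-spermatozoa (left, red) and X-spermatozoa oviducts (right, blue), with lines joining the oviducts of a sow and black bars for the mean ± SD of 4 arrays. The groups separate for HMGB1 probe set 4, which lies just above the background crosses, and for SMARCA5 probe set 2, and overlap in the other panels.

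HMGN proteins bind the nucleosome core and loosen compact chromatin. HMGN2 was among the brightest of these genes, with signals of 2318.0, 2382.9, 2308.1 and 2300.6 with Y-spermatozoa and 2415.0, 2115.5, 2159.7 and 2123.1 with X-spermatozoa. HMGN1 had signals between 1276.4 and 1683.9 with Y-spermatozoa and between 1395.1 and 1481.8 with X-spermatozoa. The groups overlapped for both, and the log2 differences were -0.0096 (standard error 0.12) and -0.07 (standard error 0.11). The median of the 5 HMGN probe sets was -0.06, and it became 0.03 after median centring. HMGA1, which binds the minor groove of AT-rich DNA, lay lower on the array, at 29.2 ± 8.93 with Y-spermatozoa and 28.5 ± 4.34 with X-spermatozoa (SD, n = 4 each), a log2 difference of 0.04 (standard error 0.23).

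H3F3A, which encodes the replacement histone H3.3, had the highest mean signal of all 76 probe sets. Its signals were 3737.7, 4222.5, 4369.2 and 3998.9 with Y-spermatozoa, against 3674.7, 3839.9, 3872.4 and 3735.0 with X-spermatozoa. On the deposited scale each sow had a higher signal with Y-spermatozoa, yet the groups overlapped. The log2 difference was -0.010 (standard error 0.11) after quantile normalization, 0.11 with the authors' scaling (limma p of 0.296) and 0.14 after median centring (limma p of 0.211), so its sign depended on the scaling and it did not pass under any of the 3.

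The macroH2A gene H2AFY, whose product carries a large extra domain and is found in silent chromatin, had its brightest probe set, probe set 1, at 836.0 ± 25.5 with Y-spermatozoa and 883.0 ± 49.3 with X-spermatozoa (SD, n = 4 each). The log2 difference was -0.11 (standard error 0.09, limma p of 0.253). Another H2AFY probe set had 0.11 and the last, below the background level on 4 arrays, 0.0078. The gene of the variant H2A.Z, H2AFZ, had signals of 519.3, 910.2, 786.5 and 997.3 with Y-spermatozoa and 614.4, 914.3, 813.6 and 733.8 with X-spermatozoa, a log2 difference of 0.010 (standard error 0.23). Sow 1 was the lowest for H2AFZ with both sperm types. HIST1H2BD, an H2B gene of the replication-dependent kind, had its brighter probe set at 837.5 ± 145.2 with Y-spermatozoa and 874.2 ± 165.0 with X-spermatozoa (SD, n = 4 each). The log2 differences of its probe sets were -0.09 and 0.36, neither past the test. The value of 0.36 belongs to a probe set above the background level on 4 of 8 arrays.

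H1FOO encodes the linker histone of oocytes. Its only probe set lay about the background level, at 9.4, 8.6, 15.2 and 11.3 with Y-spermatozoa and 9.6, 7.0, 8.4 and 10.7 with X-spermatozoa, and above it on 4 of 8 arrays, all with Y-spermatozoa. After normalization its Y-spermatozoa value exceeded the X-spermatozoa value in all 4 sows, as in 3 of the 76 probe sets (3.95%, beside 6.44% of all probe sets), with a log2 difference of 0.40 (standard error 0.21) and a limma p of 0.0961. The other 2 were probe sets of KDM4A and HDAC6. On all 4 X-spermatozoa arrays the signal of H1FOO was below the background level. That level was itself lower with Y-spermatozoa in each sow. The 9.4 on Y1 thus counted as above a level of 9, and the 9.6 on X1 as below a level of 10.4. The part of the background level in this split was not tested.

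Histone deacetylases remove acetyl groups from histone tails, and the 14 probe sets of 6 genes had a median log2 difference of 0.0082, with 8 above 0 and 6 below 0. HDAC1, a nuclear deacetylase of several corepressor complexes, had the highest mean signal among them, at 426.1, 427.2, 343.9 and 470.4 with Y-spermatozoa and 385.4, 434.9, 347.5 and 483.0 with X-spermatozoa. Sow 3 was the lowest and sow 4 the highest with either sperm type. The log2 difference was 0.0056 (standard error 0.15, 95% interval -0.35 to 0.36). HDAC2, HDAC5 and HDAC11 had differences of -0.16, -0.03 and 0.011.

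HDAC6, the mainly cytoplasmic deacetylase of tubulin, had 7 probe sets and no common direction. Probe set 4 had signals of 31.8, 31.1, 31.8 and 21.0 with Y-spermatozoa, against 26.1, 24.0, 21.0 and 20.6 with X-spermatozoa. Within each of the 4 sows the Y-spermatozoa oviduct was higher, though array Y4 lay among the X-spermatozoa arrays. The log2 difference was 0.37 (standard error 0.17), with a limma p of 0.0657 and of 0.0379 with the sow as a block, where the adjusted p was 0.895. With the block and without sow 1, 2 or 3 the limma p was 0.0845, 0.112 and 0.115, and without sow 4 it was 0.0288. The other 6 probe sets of HDAC6 had log2 differences of 1.40, 0.28, 0.18, -0.05, -0.13 and -0.21, and none passed. The value of 1.40 belongs to probe set 7, which read 15.4, 13.3, 11.5 and 10.2 with Y-spermatozoa and 3.1, 1.4, 12.3 and 12.0 with X-spermatozoa, so that it rests on signals below the background level in X1 and X2 and is no measured fold. Of the 3 probe sets of HDAC3, the catalytic part of the NCOR corepressor complex, probe set 2 was lower with Y-spermatozoa in all 4 sows (53.2 ± 4.90 with Y-spermatozoa and 59.3 ± 4.96 with X-spermatozoa, SD, n = 4 each, log2 difference -0.14, limma p of 0.289) and the other 2 had differences of 0.19 and 0.52.

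**Figure D3:**
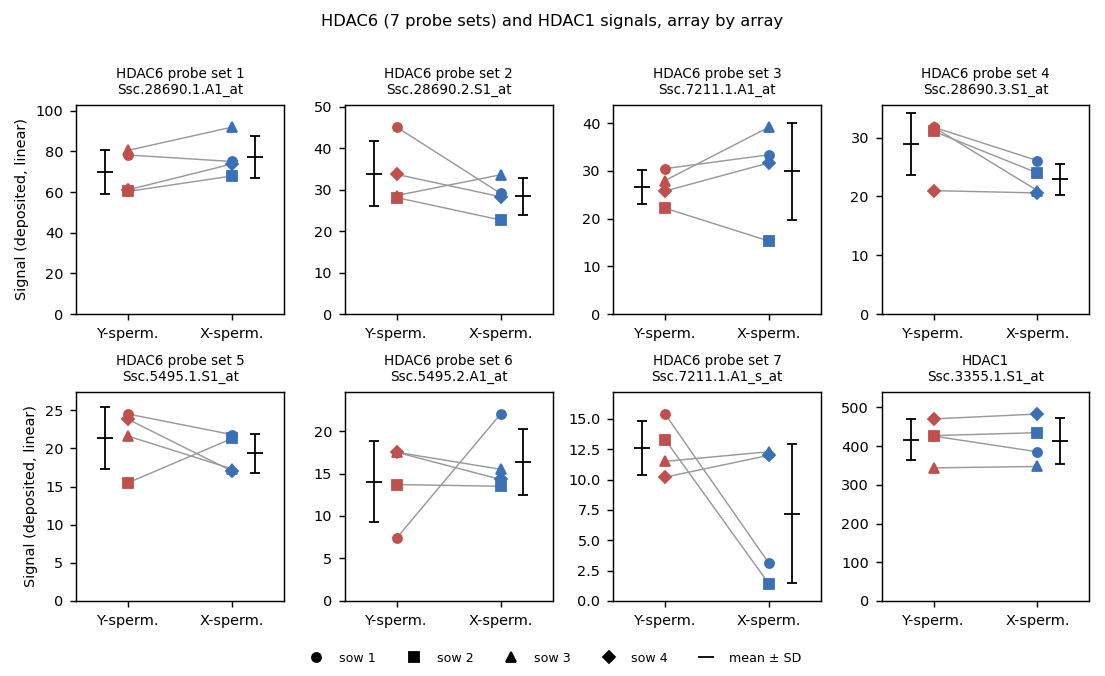
Deposited signal (vertical axis, linear) of the 7 HDAC6 probe sets and of HDAC1 in Y-spermatozoa (left, red) and X-spermatozoa oviducts (right, blue), with lines joining the oviducts of a sow and black bars for the mean ± SD of 4 arrays. Lines for probe set 4 fall in 4 of 4 sows between the Y-spermatozoa and the X-spermatozoa oviduct, and the other HDAC6 panels hold lines of both directions.

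Sirtuins are deacylases that need NAD, and the 4 measured genes, 1 probe set each, all had intervals that include 0. SIRT3, the main mitochondrial deacetylase, had signals of 340.7, 293.4, 387.9 and 256.5 with Y-spermatozoa and 355.7, 286.6, 404.6 and 295.7 with X-spermatozoa. The log2 difference of SIRT3 was -0.07 (standard error 0.18), those of the tubulin deacetylase SIRT2 and of the mitochondrial SIRT5 were -0.04 and -0.14, and that of the nuclear SIRT6 was 0.17 (limma p of 0.355). SIRT6 was the only sirtuin above 0, which held under all 3 scalings.

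SMARCA5 is the ATPase that drives the ISWI remodelling complexes, which space nucleosomes. Its called probe set, probe set 2, had signals of 134.9, 134.6, 133.0 and 122.6 with Y-spermatozoa, against 167.3, 151.7, 148.9 and 160.5 with X-spermatozoa. Every Y-spermatozoa array was again below every X-spermatozoa array, at signals far above background. This held for 2 of the 76 probe sets (2.63%, beside 1.17% of all probe sets), and the reverse for none of the 76 (0.896% of all probe sets). The means were 131.3 ± 5.84 with Y-spermatozoa and 157.1 ± 8.41 with X-spermatozoa (SD, n = 4 each), and the log2 difference was -0.25 (standard error 0.10, 95% interval -0.48 to -0.03, limma p of 0.0298, exact permutation p of 0.0286).

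The call for SMARCA5 depended on single arrays. With the sow as a block the limma p was 0.0495, and with 1 sow left out of that model it was between 0.0777 and 0.145, over the threshold whichever sow was left out. Without Y4, X1 or X4 it was 0.0713, 0.0729 and 0.0679, after median centring 0.0680, and with a covariate for the hybridisation controls 0.273, while the log2 difference stayed between -0.29 and -0.21 in the 22 alternatives run on this probe set. The other probe sets of SMARCA5 did not pass. Probe set 3 had signals of 75.5, 102.5, 100.5 and 79.7 with Y-spermatozoa and 112.2, 89.5, 95.1 and 107.5 with X-spermatozoa, lower with Y-spermatozoa in sows 1 and 4 alone. Probe set 1 had signals of 263.5, 304.5, 295.7 and 267.7 with Y-spermatozoa and 285.4, 292.1, 290.1 and 304.8 with X-spermatozoa, again lower in sows 1 and 4. The log2 differences were -0.17 (standard error 0.15) and -0.06 (standard error 0.10).

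The remaining remodelling genes gave no call. SMARCA2, an ATPase of the SWI/SNF complexes, was the brightest of the family, at 653.9 ± 28.8 with Y-spermatozoa and 684.1 ± 13.1 with X-spermatozoa (SD, n = 4 each), a log2 difference of -0.09 (standard error 0.09, limma p of 0.345). Its alternative ATPase SMARCA4 had -0.03 for the bright probe set, and 0.34 (standard error 0.67) for one that lay below the background level on 4 arrays. The SWI/SNF subunits SMARCB1, SMARCD1, SMARCD3 and SMARCE1 had differences of 0.08, 0.27, 0.05 and 0.14, and SMARCD2 0.010 and 0.20, all with limma p-values of 0.257 or more. SMARCA1, the other ISWI ATPase, had -0.02 for the bright probe set and -0.51 (standard error 0.24, limma p of 0.0712) for one that lay below the background level on 4 arrays.

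No probe set of the lysine demethylases or methyltransferases passed the test. The demethylase gene KDM4A, which acts on histone H3, read higher in the Y-spermatozoa oviduct of each sow, at 122.5, 136.4, 140.2 and 147.0 with Y-spermatozoa and 113.8, 128.5, 126.6 and 136.3 with X-spermatozoa. This small difference did not pass (log2 difference 0.12, standard error 0.11, limma p of 0.323). Its relative KDM4B, the demethylase gene with the highest mean signal, was at 346.0 ± 58.5 with Y-spermatozoa and 388.7 ± 41.9 with X-spermatozoa (SD, n = 4 each), a log2 difference of -0.19 (limma p of 0.243). The other 7 demethylase probe sets, of KDM1A, KDM2A, KDM3A and KDM5A, had differences between -0.24 and 0.15.

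KMT2E, which binds methylated histone H3 at active promoters, was measured by 4 probe sets with differences of -0.19, -0.14, -0.17 and 0.25. The first, probe set 1, had signals of 536.4, 415.3, 466.4 and 487.9 with Y-spermatozoa and 578.7, 454.7, 469.9 and 666.3 with X-spermatozoa (limma p of 0.278). It was one of 4 probe sets lower with Y-spermatozoa in all 4 sows (5.26%, beside 6.71% of all probe sets), together with those of HMGB1, SMARCA5 and HDAC3 given above. KMT5B, which methylates histone H4, had 5 probe sets, all with differences above 0, between 0.012 and 0.62. The smallest p among them was 0.272, for probe set 2 at 176.1 ± 12.1 with Y-spermatozoa and 161.9 ± 7.15 with X-spermatozoa (SD, n = 4 each). The value of 0.62 rests on array X4, which lay below the background level.

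No probe set of the DNA methyltransferases or of CBX3 passed the test. DNMT1, which copies methylation after replication, had log2 differences of -0.03, 0.14, 0.14 and -0.07 over its probe sets. The brightest, probe set 1, was at 245.2 ± 22.1 with Y-spermatozoa and 253.4 ± 50.3 with X-spermatozoa (SD, n = 4 each). The de novo methyltransferase DNMT3A had 0.08 (standard error 0.14) and DNMT3B, close to background, -0.23 (standard error 0.26). CBX3, which encodes heterochromatin protein HP1 gamma, had signals of 498.1, 491.0, 464.8 and 473.7 with Y-spermatozoa and 552.2, 418.9, 479.2 and 482.4 with X-spermatozoa. The log2 difference of CBX3 was -0.0055 (standard error 0.11, 95% interval -0.27 to 0.26).

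Of the 43 genes, 16 had several probe sets, 49 in all. In 9 of these 16 genes the probe sets had differences of both signs, and in 7 of one sign, HMGB1, SMARCA5, KMT5B and KDM5A among them. With the brightest probe set alone for each gene, 19 of 43 genes were above 0 and 24 below 0, none passed the unadjusted threshold in limma, and the called probe sets of HMGB1 and SMARCA5 were not the brightest of their genes. This count was chosen after the values were seen.

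Between sows 1 of the 76 probe sets passed the unadjusted test. SIRT3 had a mean signal of 348.2, 290.0, 396.2 and 276.1 in sows 1 to 4, a 1.44-fold range, with a limma F-test p of 0.0362 between sows (adjusted p = 0.328). It was the only one of the 76 probe sets under the unadjusted threshold (1.32%), where 14.2% of all probe sets were. No probe set passed after adjustment (0% of all). These counts moved with the setting. With a pseudocount of 16, 11 of the 76 were under the unadjusted threshold, beside 4803 of all 23999. Of the 50 brighter probe sets 7 were, beside 3530 of 11999, and after median centring 0 of the 76, beside 3348 of 23999. None of the 76 passed after adjustment in these settings, while over all probe sets 414 did with the pseudocount and 895 among the brighter ones. Next by p were probe set 3 of KMT2E (0.0555), probe set 1 of SMARCD2 (0.0573) and probe set 1 of SMARCA4 (0.0586).

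These probe sets of SMARCD2 and SMARCA4 were picked for a small p between sows. Similar signals in the oviducts of a sow follow from that choice and are no separate result. SMARCD2 had signals of 298.0, 303.7, 344.5 and 245.7 with Y-spermatozoa and 260.1, 326.3, 365.8 and 232.3 with X-spermatozoa, and SMARCA4 288.3, 337.5, 391.1 and 305.8 with Y-spermatozoa and 263.9, 339.1, 406.6 and 339.8 with X-spermatozoa. Sow 3 was the highest of the 4 for SIRT3, SMARCD2 and SMARCA4 with either sperm type. Probe set 3 of KMT2E had its lowest signals in sow 3, at 18.9 with Y-spermatozoa and 21.0 with X-spermatozoa. Sow 1, which was lowest for H2AFZ, also had the lowest summed signal of 6 genes of proliferating cells, at 140.4 with Y-spermatozoa and 167.8 with X-spermatozoa, where the other sows had 253.0 to 368.0. The part of proliferating cells in the level of H2AFZ was not tested.

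**Figure D4:**
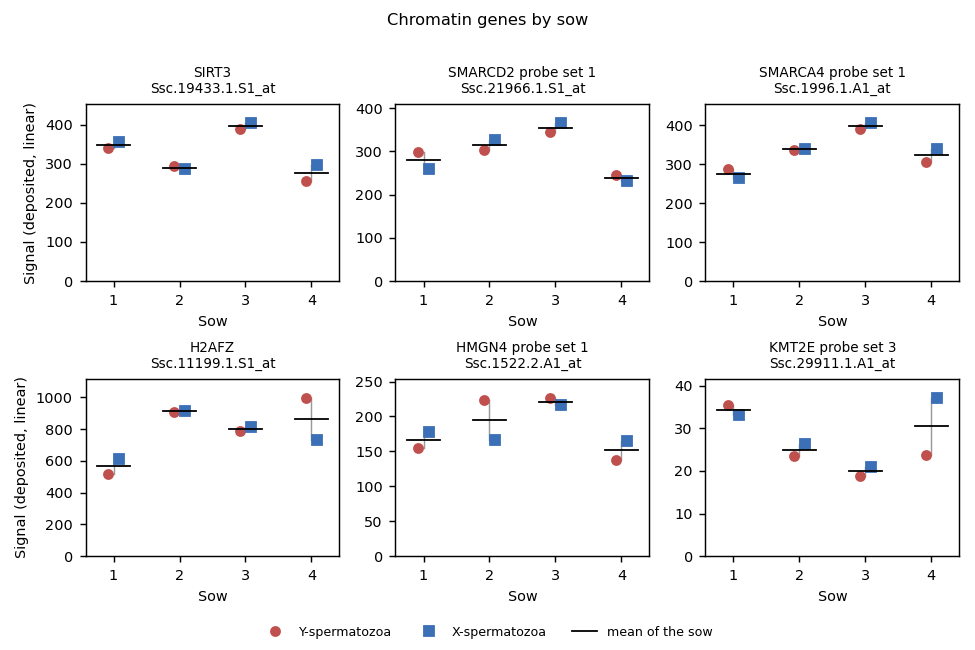
Deposited signal (vertical axis, linear) in sows 1 to 4 (horizontal axis) of the 4 probe sets with the smallest p between sows, SIRT3, SMARCD2, SMARCA4 and KMT2E, and of H2AFZ and HMGN4, with Y-spermatozoa as red circles, X-spermatozoa as blue squares and the mean of a sow as a black bar. The bars of SIRT3 run between 276.1 in sow 4 and 396.2 in sow 3, further apart than its symbols within any sow.

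Chromatin genes outside these families gave few calls too. Of 107 listed genes, which cover Polycomb proteins, acetyltransferases, CHD remodellers, histone chaperones and corepressors, 53 were measured by 85 probe sets. None was higher with Y-spermatozoa at the threshold and 3 were lower, beside the same 1.62% and 1.94% of all probe sets, and the median difference was 0.0031. The 3 were the remodeller gene CHD3 at 21.0, 13.5, 10.5 and 18.3 with Y-spermatozoa against 33.6, 26.6, 24.1 and 25.6 with X-spermatozoa, the acetyltransferase gene KAT5 and the SWI/SNF gene ARID2. Their log2 differences were -0.78, -0.30 and -0.33, with limma p-values of 0.0127, 0.0353 and 0.0264 and adjusted p-values of 1. With the sow as a block CHD3 passed the unadjusted threshold (limma p of 0.00461) and KAT5 and ARID2 did not (0.0576 and 0.0609). The called CHD3 probe set was dim, with 10.5 on Y3 at a background level of 9.8. That level was lower with Y-spermatozoa in each sow, and its part in this difference was not tested. A brighter probe set of CHD3 had a difference of -0.05 (limma p of 0.744). These 3 genes were named after their values were seen.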

How the data were processed

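RNA of each of the 8 oviduct samples was on 1 Affymetrix Porcine array. The authors deposited 1 linear intensity for each probe set, for which the submitters' processing notes name MAS5 5.1, and the trimmed mean of each array was 100.0. The study's methods describe RMA values. Probe-level data, which RMA needs, and detection calls were not used here. The signals were quantile normalized over all 24123 probe sets, a floor of 1 was set, and the log2 values of 23999 probe sets were fitted with limma 3.58.1 (lmFit and eBayes) in R 4.3.3, without a block, after 124 AFFX controls were left out. Benjamini-Hochberg adjustment ran over these 23999. The plots were made in matplotlib 3.10.9 (Python 3.11.15).

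Groups and replicate numbers came from the sample titles, which name no sow. The study used both oviducts of each sow, and arrays of equal number were taken as the oviducts of 1 sow. The deviations of same-numbered arrays from their group means correlated by 0.13 to 0.19 in the 4 sows over all probe sets. Over the 76 probe sets these correlations lay within the range of those between arrays of different number. A model with the sow as a block was an alternative. A sow is 1 biological replicate. Between sows, an F-test of the sow was taken from the model with sow and sperm type. Exact permutation tests ran over 70 relabellings and ignore the pairing. For each array, the background level is the 95th percentile of the 81 probe sets that target no pig transcript. Symbols came from the platform annotation (10099 probe sets with 1 symbol, 198 with several, 13826 with none). Of the 76 probe sets, 74 matched the RefSeq pig table by gene identifier, and 1 probe set of SMARCA4 and that of KDM4A did not. The SMARCA4 probe sets carry different gene identifiers in the platform annotation and are counted here as 1 gene by symbol. No genome positions or sequences are given.

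The genes, lists and tests were chosen with earlier results of these data known, the call for HMGB1 among them. Genes named are those with a limma p under 0.05, the brightest and the smallest p of each family, the 4 with the smallest p between sows, and all other probe sets of these genes. Other members with values in the text, such as HMGB2, HDAC3, KDM4A and H2AFZ, were chosen after their values were seen. On simulated data with 200 changed probe sets among 23999, the unadjusted threshold found 74% of changes of 1 on the log2 scale and 95% of changes of 2. The adjusted threshold found 34% and 66%. Of the unchanged probe sets 5.2% passed the unadjusted threshold. The simulated noise was independent between arrays, without a sow effect. Smaller changes, such as those of HMGB1 and SMARCA5, were not simulated, so these shares do not apply to them. Alternatives were the sow as a fixed or random block, other scalings, a pseudocount of 16, a floor at background, brighter probe sets alone, eBayes with a trend, the hybridisation controls as a covariate, the variance of each probe set without moderation, and leaving out each array or sow. The number of arrays limits the precision.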

Additional observations from a re-analysis of the deposited data

Results flagged for a closer look

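In 5 of 152 groups of 4 arrays (76 probe sets with each sperm type), 1 array stood apart by more than Dixon's 95% value for 4 arrays, measured as its gap to the nearest other array over the range of the group on normalized log2 values. Chance flags about 1 in 20 groups, and 3.29% were found here. SMARCE1, a subunit of the SWI/SNF complexes, was at 194.1 on array Y2, above the 138.5 to 141.1 of the other Y-spermatozoa arrays (gap ratio 0.987). HDAC6 probe set 4 was at 21.0 on array Y4, below 31.1 to 31.8 on the others (0.955). Without Y4 its log2 difference was 0.52 with a limma p of 0.0068, against 0.37 and 0.0657 with all arrays. HDAC3 probe set 3 was at 10.0 on array Y4, under the background level of 10.7, while the others had 12.2 to 13.2 (0.905). H3F3A was highest on array Y3 at 4369.2, above 3737.7 to 4222.5 (0.866). Among X-spermatozoa arrays, KMT5B probe set 5 was at 3.0 on X4, under the background level of 11.5, below the 17.4 to 25.8 of the others (0.8293).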

How the results depend on the processing

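No alternative gave a member an adjusted p under 0.05. The count of members higher with Y-spermatozoa was 1 with the replicate block and 1 with the sow as a random block, HDAC6 in both, and 0 in the other fits on all 8 arrays. The count lower was 1 with arrays centred on their median, beside 516 of all 23999 probe sets. It was 1 of 50 with only brighter probe sets, beside 203 of 11999. With the hybridisation controls as a covariate it was 1, beside 476 of 23999. With a floor at background it was 5 (H2AFY, HMGB1, SMARCA1, SMARCA2 and SMARCA5), beside 432 of 23999. With each probe set's own variance, without moderation, it was 4 (H2AFY, HMGB1, SMARCA2 and SMARCA5), beside 482 of 23999. Chosen after seeing the data, the brightest probe set of each gene gave 0 of 43, beside 464 of 23966. Leaving out 1 array gave 0 to 1 higher and 1 to 3 lower, beside 369 to 427 and 391 to 607 of all probe sets. The replicate block without 1 sow gave 0 to 2 higher and 1 to 2 lower, beside 524 to 574 and 555 to 652. The median difference was 0.0406 with arrays centred on their median and -0.0430 to 0.0440 without 1 array. Its extremes came without X2 and without X3.

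HMGB1 probe set 4 passed the unadjusted threshold in all 21 alternatives it was tested in (log2 difference -0.54 to -0.21, limma p 0.000202 to 0.0484, adjusted p 0.496 to 1). These refit the same 8 arrays, and the fit on brighter probe sets alone did not include it. None set it against the background level of each array, and the floor at background left its log2 difference at -0.46. SMARCA5 probe set 2 passed in 13 of 22 (adjusted p 0.715 to 1), with none of the 4 block fits without 1 sow among the 13. HDAC6 probe set 4 passed in 4 of 21. The block fits without 1 sow and the unmoderated variance were added for single probe sets after seeing the data. Under the 3 scalings 64 members kept their sign and 12 did not. Over all probe sets, 271 were higher and 631 lower under the deposited scaling, and 108 and 203 among the brighter ones, against 389 and 466. The sow block gave 563 and 659, the random block 665 and 794. Between sows, 11 members passed the unadjusted threshold with a pseudocount of 16 (4803 of all probe sets did) and 7 of 50 among brighter probe sets (3530 of 11999), against 1. After adjustment no member passed, while 414 and 895 of all probe sets did in these settings, against 0. Within a sow, the deviations of the members correlated by 0.16, 0.16, -0.05 and 0.24. Between Y- and X-spermatozoa arrays of different number they correlated by -0.27 to 0.31, a range that holds the values within sows. The 8 members whose 95% intervals reached beyond 1 were below background on 1 or more arrays.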
